A study of Homo sapiens with 23 samples.

Results

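Transcripts annotated as retaining an intron were followed in SUDHL5, an established line from a human diffuse large B-cell lymphoma. A transcript was taken when GENCODE 29 gives it the type retained_intron and its mean TPM (length-corrected transcript abundance scaled to a fixed total) over the 3 vehicle libraries was 3 or more, and 2186 of 28065 matched transcripts of that type met the rule. They belonged to 1450 genes, of which 1423 also had a protein-coding transcript, and 2144 of the 2186 transcripts lay in those genes. The transcripts were thus selected on their vehicle TPM values, and those levels are given as a description. The nearest transcripts below the threshold were TMC8-208 (TPM of 2.9969), CHKB-204 (2.9971) and H2AFZ-203 (2.9976), and the nearest above it were DNAJC7-220 (3.0027), RBM5-215 (3.0033) and LGALS8-224 (3.0034).

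The study treated SUDHL5 cells with a compound named CDK-TCIP1 or with Neg1 (BAK-04-054) or Neg2 (BAK-04-066), and its title places the work in the use of transcriptional kinases to start apoptosis. For 2 h, the cells received CDK-TCIP1 at 10 nM (n = 2), at 30 nM (n = 4) or at 100 nM (n = 3), and for 4 h at 30 nM only (n = 3). Each of Neg1 and Neg2 was tested at 30 nM in a pair of libraries after 2 h and another pair after 4 h, while vehicle alone was sampled at 4 h only (n = 3). All 23 libraries, in 9 groups, held 0.1% DMSO and the same cell line, with no genetic change named. Separate cultures are not stated for the replicates, so the p-values reflect the spread among these samples alone, and that spread may be technical.

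An intron is removed when the spliceosome recognises a 5′ splice site, a branch point and a 3′ splice site, the last after a run of pyrimidines. A poly(A) transcript that keeps an intron often stays in the nucleus or, once exported, can be degraded through a premature stop codon. Genes for splicing factors are known for such transcripts, through which many of them limit their own output, and introns of CLK1, OGT and MAT2A are known examples of regulated retention.

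The splice sites of introns that the results turn on are shown here. The retained-intron transcript keeps each intron and a coding transcript of the gene removes it, but other coding transcripts may differ. The sites were read from GENCODE 29 transcripts (GRCh38), 5′ to 3′ on the gene's strand, and intron numbers count along the coding transcript with that intron. Each 5′ splice site is given as 3 exon and 6 intron bases and each 3′ splice site as 20 intron and 3 exon bases. Capitals mark the first and last 2 bases of the intron. The RBM39 intron lies at chr20:35739018-35740823 (minus strand, 1806 bases, intron 2 of 16), the CDCA7 intron at chr2:173363896-173364794 (plus strand, 899 bases, intron 5 of 9) and the DDX17 intron at chr22:38488116-38492055 (minus strand, 3940 bases, intron 11 of 12). The SF3B1 intron lies at chr2:197418589-197418895 (minus strand, 307 bases, intron 5 of 6), and HNRNPD-210 keeps several introns, of which intron 8 of 8, at chr4:82354155-82355303 (minus strand, 1149 bases), is shown. The BRD2 intron lies at chr6:32976937-32977441 (plus strand, 505 bases, intron 6 of 12), and the CDCA5 intron at chr11:65083724-65083932 (minus strand, 209 bases, intron 1 of 5).
RBM39-223, 5′ splice site: aagGTgaga
RBM39-223, 3′ splice site: cttctatcaaccctgcttAGgat
CDCA7-208, 5′ splice site: tcaGTaagt
CDCA7-208, 3′ splice site: cttatacgtgctttgtttAGcaa
DDX17-201, 5′ splice site: tagGTttgt
DDX17-201, 3′ splice site: actcatcattgacgtggaAGatg
SF3B1-208, 5′ splice site: agtGTacgt
SF3B1-208, 3′ splice site: gttgctgttcttttctgcAGgag
HNRNPD-210, 5′ splice site: cagGTatgt
HNRNPD-210, 3′ splice site: tttttcttctttgtctccAGgtg
BRD2-208, 5′ splice site: aagGTaccc
BRD2-208, 3′ splice site: gatgctgcctccttctgcAGcgg
CDCA5-204, 5′ splice site: ccgGTgagc
CDCA5-204, 3′ splice site: taacttttttctctttccAGggc

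The DDX17 3′ splice site stands out among these by its few pyrimidines. It has 9 in the 18 bases before AG, and 2.85% of the 876 retained introns that end in AG have fewer. The median over those introns was 13, with quartiles of 12 and 15. The RBM39 intron has 14, the CDCA7 and BRD2 introns 13 each, the CDCA5 intron 16 and the shown HNRNPD intron 17.

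Not every transcript of the annotated type held a whole intron. Only 592 of the 2186 (27.1%) contained an entire intron of a coding transcript of their gene. Another 698 (31.9%) began inside an intron, 689 (31.5%) ended inside one, 113 did both, 52 fell in no such class and 42 had no coding transcript to compare with. The 592 held 891 distinct introns in 455 genes, with a median length of 249 bases against 837.5 bases for the other 6284 coding introns of those genes. Of the 891, 33.4% were shorter than 150 bases, against 16.8% of the others, and 96.0% had GT-AG ends. The last intron made up 12.9% of the retained and 11.6% of the other introns, and the first 16.8% and 20.2%. These are counts from the annotation, with no test.

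A poly(A) signal was uncommon at the annotated end of these transcripts. AATAAA or ATTAAA on the transcript's own strand occurred in the last 40 bases of 24.2% of them, against 61.3% of 14939 protein-coding transcripts with a TPM of 3 or more and 30.2% of all transcripts. The share was 7.98% where the transcript ended inside an intron and 37.0% where it held a whole intron. A pair of RBM39 transcripts that both read into intron 2 illustrate this, shown by their last 30 bases with the motif in capitals. RBM39-222 ends inside the intron at chr20:35740099, and RBM39-223 runs to the end of the gene at chr20:35703609.
RBM39-222, 3′ end: tgactgttttactgttctccatattgtttt
RBM39-223, 3′ end: cactcaAATAAAagtctcttaaaaaggcca

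In the vehicle libraries the median TPM was 5.62, and the 90th percentile was 19.8. The highest was RPL13-213 at 2920, followed by RPS23-203, RPL14-208, RPS28-201 and RPL4-203, all of ribosomal protein genes. Most genes (981) had 1 such transcript, 21 had at least 5, and HNRNPH1 and the noncoding host gene GAS5 had 10 each. Estimated counts share reads among overlapping transcripts, and 608 of the 2186 had fewer than 100 bases outside the coding exons of their gene (21 had none), so their separation from the coding transcripts is uncertain.

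Libraries held 17396484 to 26373153 estimated counts, and these transcripts took 1.91 to 2.17% of them, so precision was lowest for transcripts with few counts. All 6 B-cell markers and all 5 germinal centre markers had a mean TPM of at least 1. Among markers of other cells, 1 of 6 for T and NK cells (CD3E) and 1 of 6 for epithelial cells and fibroblasts (DCN) reached that level, and none of 5 myeloid or 4 erythroid markers did. The summed TPM of the B-cell markers was 1700 to 1860 in the CDK-TCIP1 libraries at 4 h and 2160 to 2320 in those of Neg1 and Neg2. The mitochondrial share of counts was 6.81 to 7.16% and 5.53 to 5.67% in the same libraries, and 7.03 to 7.87% at 100 nM. The part of these differences in the results was not tested.

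The main measure was the retention ratio, the transcript's estimated counts per 100 estimated counts of all protein-coding transcripts of its gene. It is not corrected for length, so it is compared between libraries and not between transcripts. In Neg1 and Neg2 at 4 h the median ratio was 2.72 (quartiles 0.867 and 8.54), and 467 transcripts exceeded 10, 109 exceeded 50 and 47 exceeded 100. The test was the quasi-likelihood F test of edgeR on both counts of each library, fitted to 25046 transcripts of 3 noncoding types with p-values adjusted over all of them. A ratio is said to have risen or fallen where the adjusted p was under 0.05. The fit held 2106 of the 2186 transcripts, of 1398 genes: 42 had no coding transcript and 38 were too low in one of their counts. Controls were Neg1 and Neg2 of the same time, whose libraries were given equal weight. Neg1 and Neg2 themselves differed in 0 of the 2106 ratios at either time by edgeR (0% of all rows at both times) and in 0 by limma, with 33 ratios at 4 h and 80 at 2 h at an unadjusted p under 0.05 in edgeR.

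The median ratio at 30 nM lay close to that of the controls, slightly above it at 4 h and slightly below it at 2 h. Against Neg1 and Neg2, the median log2 change over the 2106 transcripts was 0.07 at 4 h, where the median over all rows was 0.15, and -0.14 at 2 h, where it was 0.03. For nonsense-mediated decay transcripts of the same vehicle level the 4 h and 2 h medians were -0.09 and -0.08, and for processed transcripts -0.04 and -0.07. The difference between the 4 h and the 2 h effect had a median of 0.24 over these transcripts and 0.14 over all rows. Per library, the median log2 ratio relative to the 8 Neg1 and Neg2 libraries was 0.069, 0.074 and 0.166 with CDK-TCIP1 at 4 h, above all 4 Neg1 and Neg2 libraries of that time (-0.052 to 0.062). At 2 h the 4 libraries at 30 nM had -0.113 to -0.004, below the 4 Neg1 and Neg2 libraries (0.049 to 0.101). Summed over all these transcripts, the ratio was 6.75 to 7.03 with CDK-TCIP1 at 4 h and 6.19 to 6.39 with Neg1 and Neg2.

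**Figure D1:**
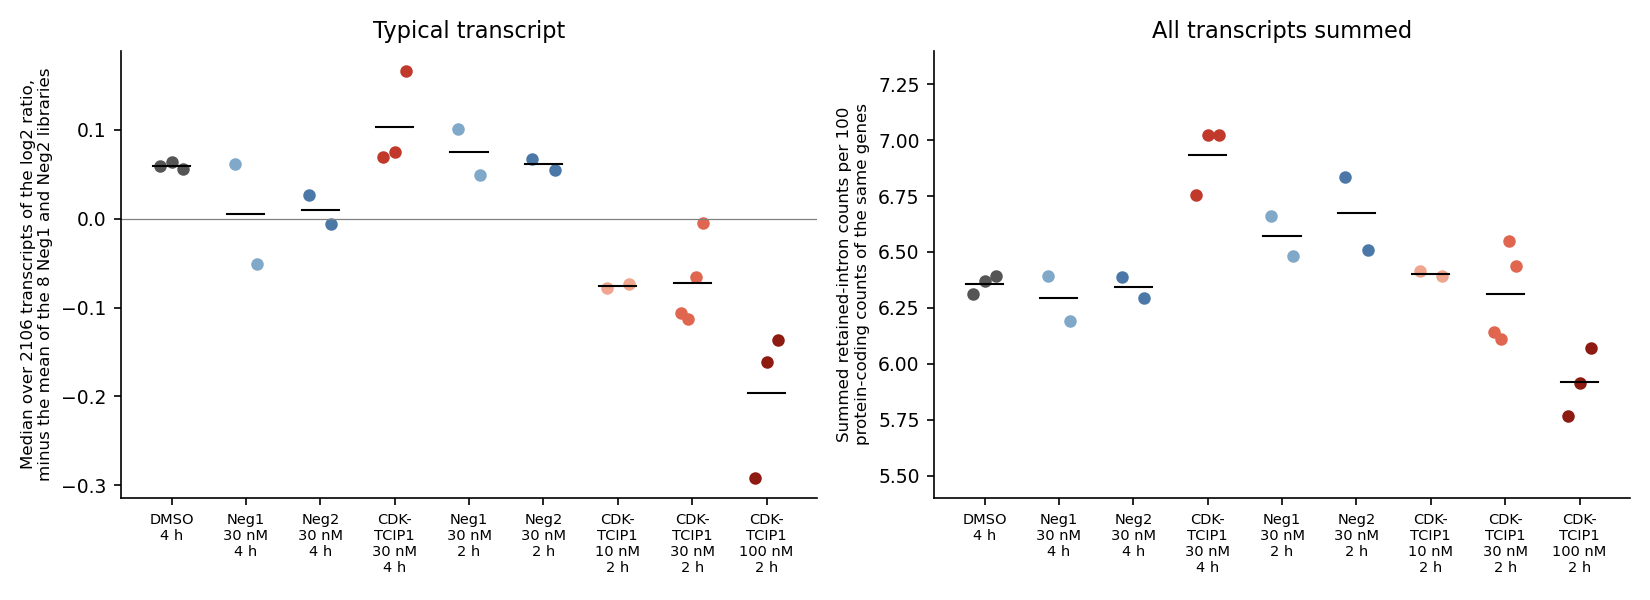
Each point is 1 library and each bar the mean of its group. The left panel shows the median log2 retention ratio over 2106 transcripts relative to the mean of the 8 Neg1 and Neg2 libraries, the right panel the summed ratio (its axis starts at 5.4); the CDK-TCIP1 libraries at 4 h lie at 0.069 to 0.166 and those at 100 nM for 2 h at -0.291 to -0.136.

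After 4 h at 30 nM of CDK-TCIP1, the ratio of 55 retained-intron transcripts of 38 genes rose and that of 16, of 15 genes, fell. The rises were 2.61% of those tested, against 1.1% of all rows, and the falls 0.76%, against 0.303%. All rows include transcripts of lower vehicle TPM. At the same vehicle level, nonsense-mediated decay transcripts had 2.33% rises and 1.29% falls, and processed transcripts 1.14% and 1.02%. The share of rises was thus close to that of nonsense-mediated decay transcripts, and the share of falls was below both types. The changes with the smallest adjusted p among the named transcripts with counts in all libraries were in RBM39 and CDCA7 upward and in HMGN1 downward. These counts are of the fit of all 9 groups. A fit of the 4 h libraries of these compounds alone called 0 higher and 0 lower, and leaving out 1 library gave 18 to 45 rises and 4 to 9 falls.

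RBM39, an RNA-binding protein that takes part in splicing, had 6 such transcripts, all with a positive change at 4 h (1.25 to 3.77 on the log2 scale), and 4 of the 6 rose. RBM39-223 keeps intron 2 and otherwise runs the length of the gene. Its ratio was 141, 167 and 138 in the CDK-TCIP1 libraries at 4 h, against 24.8 and 19.5 with Neg1, 29.9 and 24.8 with Neg2, and 24.6, 27.5 and 23.4 with vehicle. The treated libraries were far above all of these, so that retained-intron counts passed coding counts. Its ratio rose by 2.60 on the log2 scale (SE 0.24, edgeR adjusted p = 3.2e-05). RBM39-222, which ends inside the same intron, had 21.6, 32.1 and 24.3 with CDK-TCIP1 and 1.23 to 2.49 with Neg1 and Neg2, a rise of 3.77 (SE 0.33, edgeR adjusted p = 1.7e-05). Behind this, the coding transcripts of RBM39 went from 170 CPM ± 7.51 (SD, n = 4) with Neg1 and Neg2 to 55.2 CPM ± 3.38 (SD, n = 3) with CDK-TCIP1, and RBM39-223 itself from 41.9 CPM ± 5.38 to 81.7 CPM ± 5.07, where CPM is the count scaled to a fixed library total after normalization. Both calls held whichever of the 7 libraries was left out. With all other transcripts of the gene in place of the coding ones below the ratio, the changes were smaller, at 1.07 for RBM39-223 and 2.09 for RBM39-222, both still called. The other called pair, RBM39-228 (1.56) and RBM39-233 (1.55), named after their values were seen, had -0.17 and -0.18 with that denominator.

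Among the hnRNPs and other RNA-binding splicing regulators, 16 of 60 transcripts rose at 4 h, in 7 genes, and 1 fell. Over all 2106 transcripts 2.61% rose and 0.76% fell. HNRNPD encodes AUF1, a protein that binds AU-rich elements. HNRNPD-210, which keeps several introns at the end of its gene, had a ratio of 11.6, 10.2 and 13.0 with CDK-TCIP1 against 2.14 to 3.01 with Neg1 and Neg2. It rose by 2.11 on the log2 scale (SE 0.26, edgeR adjusted p = 0.000597). HNRNPH1, a regulator that binds G-rich sequence, had 5 of its 10 transcripts higher at 4 h and none called at 2 h, and its coding level was 230 CPM ± 9.02 (SD, n = 3) against 481 CPM ± 12.9 (SD, n = 4). The largest of its called rises was HNRNPH1-235 at 1.91 (SE 0.24), and its retained-intron levels changed less than its coding level: HNRNPH1-227, for example, had a ratio change of 1.06 and a level change of -0.01. Rises were also called for 2 of 3 transcripts of TIA1 and 2 of 2 of HNRNPL. HNRNPH1, TIA1 and HNRNPL were singled out after their values had been seen.

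RNA helicases gave the most tightly replicated ratios. DDX17 encodes a DEAD-box RNA helicase that acts in splicing, and DDX17-201 keeps the 3940-base intron whose 3′ splice site is shown above. Its ratio was 84.9, 88.5 and 84.1 with CDK-TCIP1 at 4 h, 32.0 and 30.0 with Neg1 and 28.5 and 29.6 with Neg2, with no overlap. It rose by 1.52 on the log2 scale (SE 0.20, edgeR adjusted p = 0.00105), with coding counts at 369 CPM ± 8.92 against 603 CPM ± 17.5. DDX17-204, which starts inside an intron, rose by 2.30 (SE 0.43), but the call was lost without CDK-TCIP1 replicate 1 or 2. In all, 4 of 22 transcripts of helicase, export and exon junction genes rose and none fell, beside 2.61% rises and 0.76% falls over all 2106.

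In the core spliceosome 2 of 34 transcripts rose. Over all 2106 transcripts 2.61% rose and 0.76% fell at 4 h, and nothing is read from list counts this small. SF3B1, the U2 snRNP subunit at the branch point, had SF3B1-208 at 16.9, 19.0 and 13.2 with CDK-TCIP1 and 3.8 to 6 with Neg1 and Neg2, a rise of 1.81 (SE 0.30, edgeR adjusted p = 0.0053). DHX15, a helicase that takes spliceosomes apart, had DHX15-202 at 2.38, 2.98 and 3.02 against 0.995 to 1.31, a rise of 1.25 (SE 0.22) that was lost without CDK-TCIP1 replicate 2 or 3. Among SR proteins and their relatives 6 of 49 rose. They lay in 3 genes, among them SON, a scaffold of nuclear speckles, with 3 of its 3 transcripts, and SRRM2, another speckle protein, with 2 of 4. SRRM2 was singled out after its values had been seen. The coding counts of SON were 509 CPM ± 4.22 against 513 CPM ± 19.5, so there the ratio moved with the retained-intron counts. The 4 h call of SON-214 was lost with any library left out, and that of SON-216 in 6 of 7 such fits. With all other transcripts of the gene as denominator, SON-214 had 1.60 and SON-216 1.56 at 4 h, neither called. Of the 15 transcripts of 3′ end genes 1 rose, PABPC1-203 (1.63, SE 0.24), of the cytoplasmic poly(A)-binding protein. None of the 12 transcripts of decay and exosome genes was called at either time. At 2 h 1.47% of all 2106 rose and 2.33% fell, so nothing is read from these 12.

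**Figure D2:**
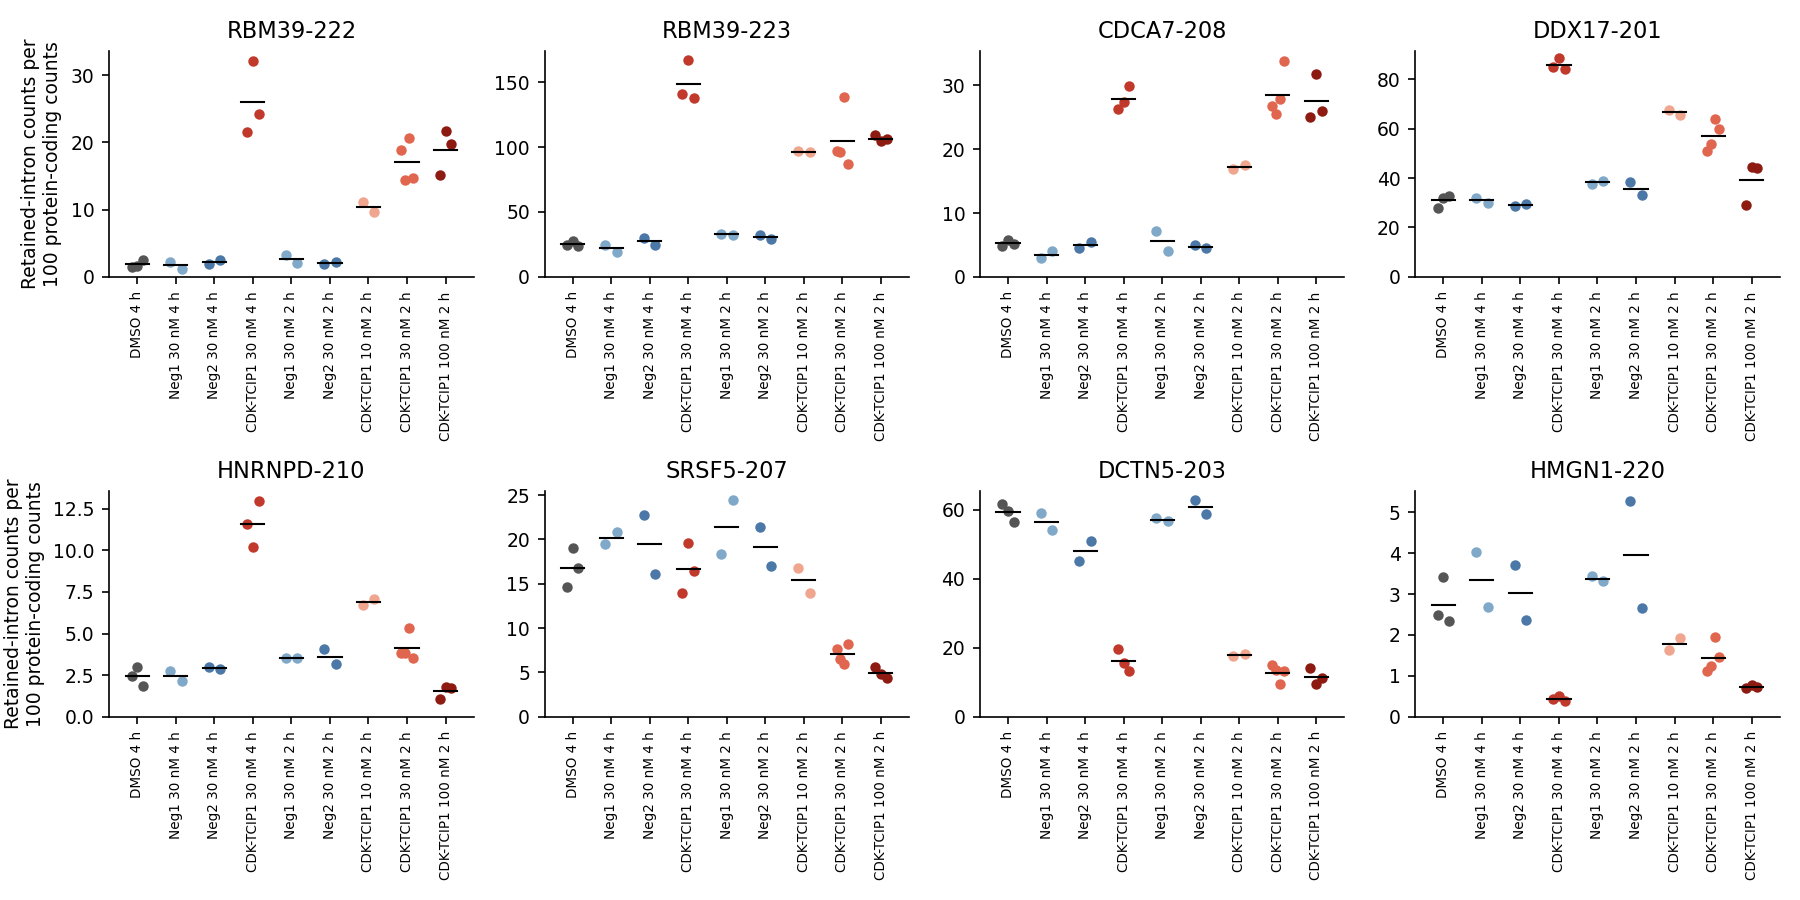
Retained-intron estimated counts per 100 protein-coding counts of the gene for 8 transcripts, with 1 point a library and a bar at each group mean; each vertical axis starts at 0. RBM39-223 lies at 138 to 167 with CDK-TCIP1 for 4 h and at 19.5 to 29.9 with Neg1 and Neg2, while HNRNPD-210 at 2 h is lowest at 100 nM.

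Outside the lists of RNA-processing genes that were used here, the rises were in genes of varied function. CDCA7, which works with the remodeller HELLS and is a MYC target, had the clearest one. CDCA7-208, with intron 5 kept, had a ratio of 26.3, 27.4 and 29.9 with CDK-TCIP1 at 4 h and 2.99 to 5.45 with Neg1 and Neg2. It rose by 2.76 on the log2 scale (SE 0.25, edgeR adjusted p = 2.22e-05). Its own level went from 11.4 CPM ± 2.69 (SD, n = 4) to 61.6 CPM ± 1.16 (SD, n = 3), while coding counts went from 270 CPM ± 7.82 to 221 CPM ± 10.2. IVNS1ABP-207, of a kelch protein that binds influenza NS1, had 356, 329 and 245 against 63.9 to 74.9, and rose by 2.17 (SE 0.30). PAXBP1-207 had 94.7, 113 and 74.5 against 15 to 20.4, a rise of 2.33 (SE 0.30). LARS-215, of the leucyl-tRNA synthetase gene, rose by 2.59 (SE 0.39). These 4 calls held with each library left out, but IVNS1ABP-207 had 0.90 and was not called (edgeR adjusted p = 0.125) with all other transcripts of its gene as denominator.

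Other named rises were less stable. The largest fitted one was SELENOT-201 (4.05, SE 0.90), of an endoplasmic reticulum selenoprotein, whose treated libraries spread from 1.42 to 6.08 and whose call was lost in 6 of 7 fits with a library left out. ESS2-204 (2.34), OXA1L-207 (2.30), of a protein that inserts mitochondrial membrane proteins, and MARS-211 (2.40), of the methionyl-tRNA synthetase gene, lost theirs in 4, 5 and 5 of 7. Among germinal centre and B-cell genes 2 of 27 transcripts rose, beside 2.61% over all 2106. Both were of PLCG2, the phospholipase downstream of the B-cell receptor: PLCG2-204 by 1.32 (SE 0.24) and PLCG2-216 by 1.03 (SE 0.21). These calls were lost in 4 and 7 of the 7 such fits. BCL6-208, of the germinal centre repressor, had 0.383 to 0.668 against 0.561 to 0.893, and was not called.

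Falls at 4 h were fewer than rises, except in the fit of the compared groups alone, which called 0 of either. HMGN1-220, which starts inside an intron, had a ratio of 0.429, 0.494 and 0.393 with CDK-TCIP1 and 2.36 to 4.02 with Neg1 and Neg2, and fell by 2.83 on the log2 scale (SE 0.29, edgeR adjusted p = 7.67e-05). All 4 transcripts of HMGN1 had negative values at both times, with 2 called at 4 h and 3 at 2 h. CDCA5 encodes sororin, which protects sister chromatid cohesion, and CDCA5-204, which keeps the 209-base intron 1, had 0.401, 0.788 and 0.884 against 3.27 to 3.62, a fall of 2.40 (SE 0.38, edgeR adjusted p = 0.00458). DCTN5-203, of a dynactin subunit, had 19.7, 15.4 and 13.3 against 45.0 to 58.9, and fell by 1.71 (SE 0.26, edgeR adjusted p = 0.00346). The 3 treated libraries were below every Neg1 and Neg2 library in each case. The rule that named these transcripts required this, so it adds nothing to the calls. The calls held with each library left out.

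Other falls at 4 h were lost in 6 of 7 fits with a library left out. They were WDR46-235 (-1.89) and IMP4-208 (-1.60), both of genes that act in ribosome assembly, and SREBF2-204 (-1.55), of a sterol-sensing transcription factor. DIAPH1-210, of a formin, was listed at an estimated count of 0 in all 3 CDK-TCIP1 libraries at 4 h and had ratios of 1.5 to 2.95 with Neg1 and Neg2. Set against a floor of 3 counts in each treated library, its ratio was at least 42.1-fold lower. It has only 46 bases outside coding exons, and an exact 0 can be a failed estimate.

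At 2 h and 30 nM, 31 ratios of 23 genes rose (1.47%, against 1.1% of all rows) and 49 of 46 genes fell (2.33%, against 0.539%). At the same vehicle level, nonsense-mediated decay transcripts had 1.55% rises and 0.431% falls, and processed transcripts 1.31% and 1.25%. The fit of the 2 h libraries of these compounds alone called 3 and 2, and leaving out 1 library gave 14 to 37 rises and 21 to 36 falls. Which direction had more calls was not stable: there were 3 rises and 2 falls in the fit of these groups alone, 37 and 36 without replicate 2 of Neg2 at 2 h, and 4 and 4 with the replicate number as a block. By class, the median change at 2 h was -0.27 for transcripts with a whole intron, -0.18 for those that start in an intron and 0.03 for those that end in one. Falls numbered 25 of 589, 17 of 686 and 4 of 674 in these classes. Ordered by gene span in 3 equal parts, the transcripts of the shortest genes (up to 13.9 kb) had a median of -0.24 with 24 falls, and those of the longest (from 37.6 kb) -0.03 with 10.

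The rises at 2 h again included RBM39 and CDCA7. RBM39-223 had ratios of 96.7, 96.5, 139 and 86.8 against 28.8 to 33.1 with Neg1 and Neg2 and rose by 1.70 on the log2 scale (SE 0.22, edgeR adjusted p = 0.000849). RBM39-222 rose by 2.86 (SE 0.30). CDCA7-208 had 26.8, 25.6, 27.9 and 33.9 against 4.09 to 7.18 and rose by 2.49 (SE 0.23, edgeR adjusted p = 4.79e-05). All these libraries were above all of Neg1 and Neg2, but the naming rule required this of RBM39-222 and CDCA7-208, so nothing is read from it. CCNL1 encodes cyclin L1, a partner of the splicing kinase CDK11, and 3 of its 8 transcripts rose. Only 5 of the 8 had a positive value, the values ran from -2.53 to 2.16, and 0 fell by the test. CCNL1-215, which keeps introns 4 and 5, had 389, 413, 359 and 511 against 90.1 to 184, a rise of 1.76 (SE 0.31, edgeR adjusted p = 0.00947). CCNL1-222 rose by 2.16 (SE 0.35), as did CCNL1-220 (SE 0.52), whose call was lost with any library left out. With all other transcripts of the gene as denominator the changes were 0.62 for CCNL1-215, 0.86 for CCNL1-222, 0.84 for CCNL1-220 and 0.66 for RBM39-223, none called, and 1.72 for RBM39-222, called. SON-214 rose by 2.06 (SE 0.39), PLCG2-204 by 1.41 (SE 0.23) and ESS2-204 by 2.26 (SE 0.42), which was 1.17 and not called with the other denominator.

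Among the falls at 2 h, DCTN5-203 had ratios of 15, 13.4, 9.36 and 13.2 against 56.8 to 62.8, a fall of 2.23 on the log2 scale (SE 0.24, edgeR adjusted p = 0.000169). BRD2 encodes a BET bromodomain protein, and BRD2-208, with intron 6 kept, had 1.76, 2.28, 2.87 and 2.15 against 4.35 to 7.96. It fell by 1.37 (SE 0.22, edgeR adjusted p = 0.00534), and at 4 h by 1.18, a call lost in 5 of 7 fits with a library left out. SRSF5, an SR protein, had 5 transcripts, all with negative values at both times, except SRSF5-212 at 4 h with the other denominator (0.02). SRSF5-207 had 7.66, 6.54, 5.98 and 8.22 against 17 to 24.5 and fell by 1.51 (SE 0.25, edgeR adjusted p = 0.00572), while at 4 h it had 13.9 to 19.6 against 16.1 to 22.8 and was not called. Coding counts of SRSF5 were 158 CPM ± 2.98 (SD, n = 4) at 2 h against 100 CPM ± 15 (SD, n = 4). GATD1-213 fell by 2.31 (SE 0.42), and its call held with each library left out. FBXL6-203 (-2.52), CCT3-214 (-2.29), of a chaperonin subunit, and C16orf91-202 (-2.28), of the gene UQCC4, lost theirs in 8, 7 and 8 of 8 such fits.

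The 2 times shared no libraries, and their changes ran in the same direction more often than not. Of the transcripts called, 19 rose at both times, which was 34.5% of the 4 h rises and 61.3% of the 2 h rises. A further 7 fell at both, 43.8% of the 4 h falls and 14.3% of the 2 h falls, and 0 were called in opposite directions. Of the 55 rises at 4 h, 52 had a positive value at 2 h, and of the 49 falls at 2 h, 47 had a negative value at 4 h. Across the 2106 transcripts, which are not independent replicates and share the depth of their libraries, Pearson's r between the changes was 0.37 and Spearman's rho 0.41. Over the 1117 with at least 50 counts, r was 0.47. In a direct test of the difference between the times, edgeR called 1 transcript, DIAPH1-210 (0.00399% of all rows), and limma called 6 with a higher and 1 with a lower change at 4 h.

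**Figure D3:**
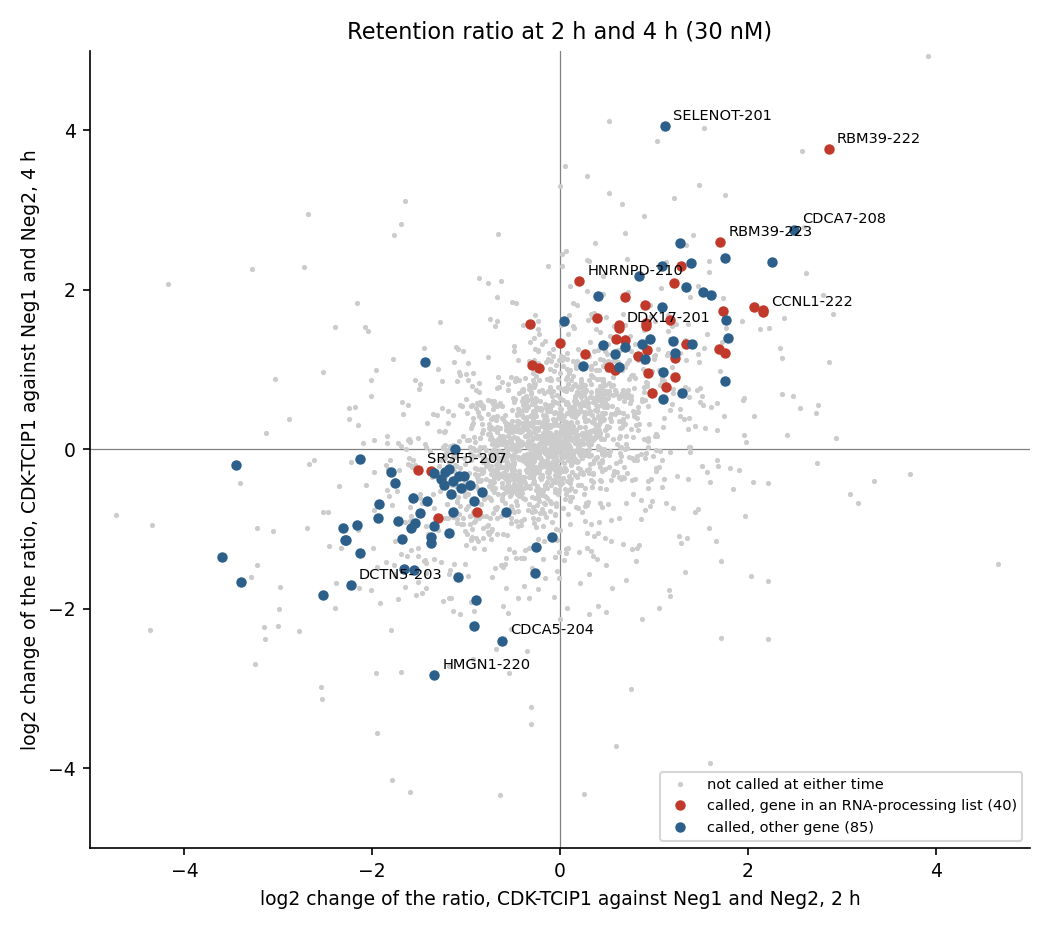
Each point is a retained-intron transcript, with the log2 change of its ratio against Neg1 and Neg2 at 2 h on the horizontal and at 4 h on the vertical axis (30 nM). Coloured points were called at either time, in red for genes of RNA-processing lists; 19 rose and 7 fell at both times, DIAPH1-210 is not drawn, and points beyond 5 on either axis fall outside the plot.

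Most called ratios moved with the retained-intron transcript and, to a smaller extent, against the coding transcripts. Among the 55 rises at 4 h the median log2 change was 1.18 for the retained-intron level and -0.34 for the coding level, and in 42 of the 55 the first was up and the second down. In 9 both were up and in 4 both were down. Among the 16 falls the medians were -1.12 and 0.19. At 2 h the medians were 1.28 and -0.20 for the 31 rises, and -1.18 and 0.31 for the 49 falls. In this comparison of levels a shift of all RNA together would not show.

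**Figure D4:**
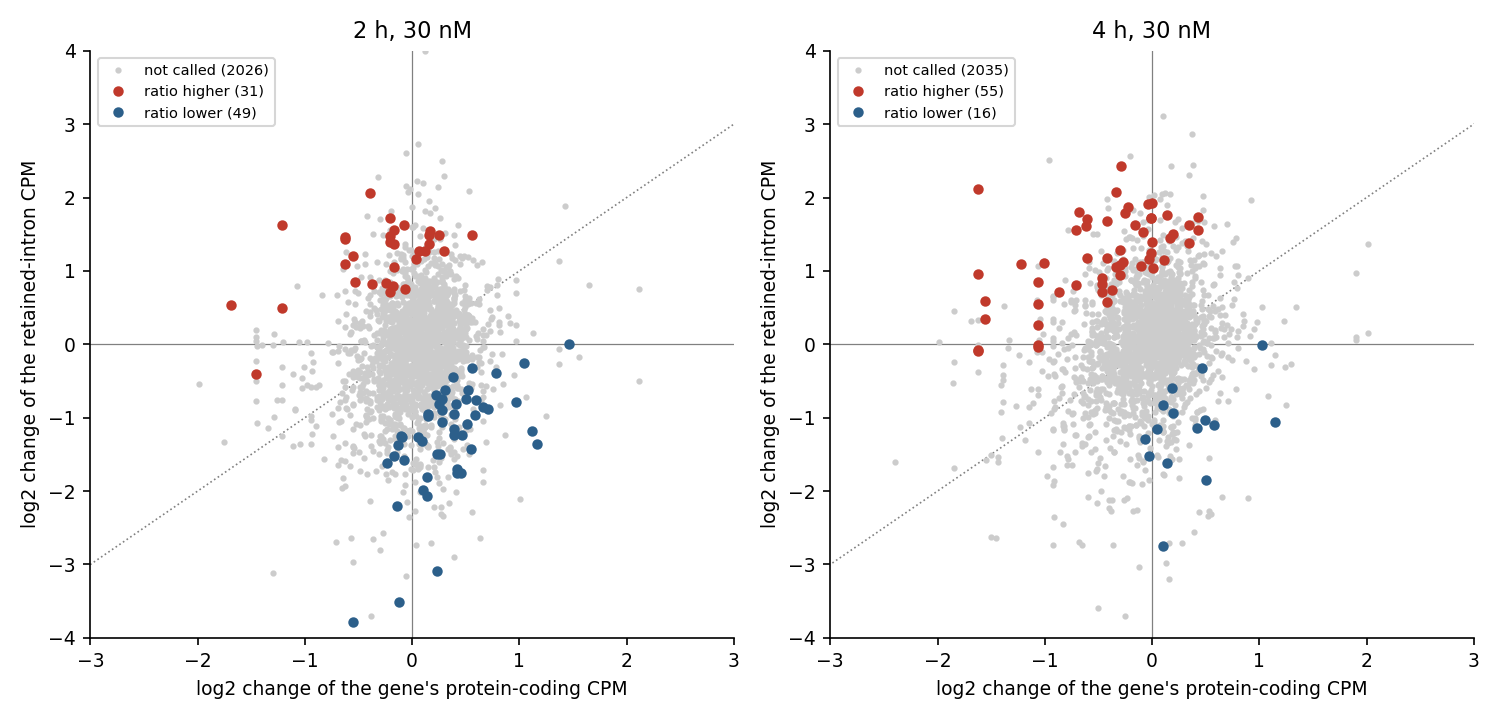
The log2 change of the retained-intron level (vertical) is plotted against that of the coding level of the same gene (horizontal) for 2106 transcripts at 2 h and at 4 h; equal changes fall on the dotted line. At 4 h the 55 raised ratios have median changes of 1.18 and -0.34, and points beyond the axes are not drawn.

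The transcripts were also tested by their own level, without reference to the coding transcripts. At 4 h, 125 of 2150 rose (5.81%, against 3.8% of all 71144 transcripts tested) and 67 fell (3.12%, against 4.05%). At 2 h 102 rose (4.74%, against 3.99%) and 106 fell (4.93%, against 3.28%). All transcripts tested include those of lower vehicle TPM. Protein-coding transcripts with a vehicle TPM of 3 or more had higher shares: 8.12% rises and 14.5% falls at 4 h, and 9.32% and 11.6% at 2 h. Both the ratio and the level rose for 46 transcripts at 4 h and 27 at 2 h, and both fell for 13 and 39. Calls in opposite directions numbered 0 at 4 h and 1 at 2 h. This was EIF4A2-219, of a translation initiation helicase and named after its values were seen, whose ratio rose by 1.09 (SE 0.26, edgeR adjusted p = 0.0434) while its level fell by 0.41. The level alone rose for 77 at 4 h, among them CCNL2-204 (1.36, SE 0.17, edgeR adjusted p = 5.17e-05) and OGT-210. OGT encodes the O-GlcNAc transferase. OGT-210, with intron 4 kept, had ratios of 165, 181 and 161 against 110 to 126. Its ratio change of 0.52 (SE 0.21, edgeR adjusted p = 0.316) was not called, and its level change was 0.46 (edgeR adjusted p = 0.00287).

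Of the 55 rises at 4 h, 30 were in genes of the RNA-processing lists. These lists were chosen with earlier results of these data known, so the shares below are a description and no independent support. In 7 lists of such genes (splicing kinases and L cyclins, SR proteins, hnRNPs and related regulators, the core spliceosome, helicases and export, decay, and 3′ end formation), 30 of 206 transcripts rose at 4 h (14.6%) and 1 fell, with a median change of 0.50. The 30 rises became 0 with only the compared groups in the fit, 3 without a filter on low counts, 13 with the replicate number as a block, 12 to 26 with 1 library left out and 51 by limma. In all other genes 25 of 1900 rose (1.32%) and 15 fell, with a median of 0.05. At 2 h the counts were 17 of 206 (8.25%) with 4 falls, and 14 of 1900 (0.737%) with 45 falls. The 17 rises became 2, 2, 3, 10 to 15 and 29 under the same alternatives. The 206 transcripts came from 102 genes, and several genes gave more than 1, so the counts are not of independent genes and the difference between the shares was not tested.

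A gap of the same kind was seen in other noncoding transcript types. Of the lists' nonsense-mediated decay transcripts of the same vehicle level, 12 of 95 rose at 4 h (12.6%), against 15 of 1065 in other genes (1.41%). Of their processed transcripts 11 of 127 rose (8.66%), against 9 of 1630 (0.552%). The higher share in RNA-processing genes was thus also measured outside retained-intron transcripts. The ratio of each type has the same coding counts of the gene below it.

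**Figure D5:**
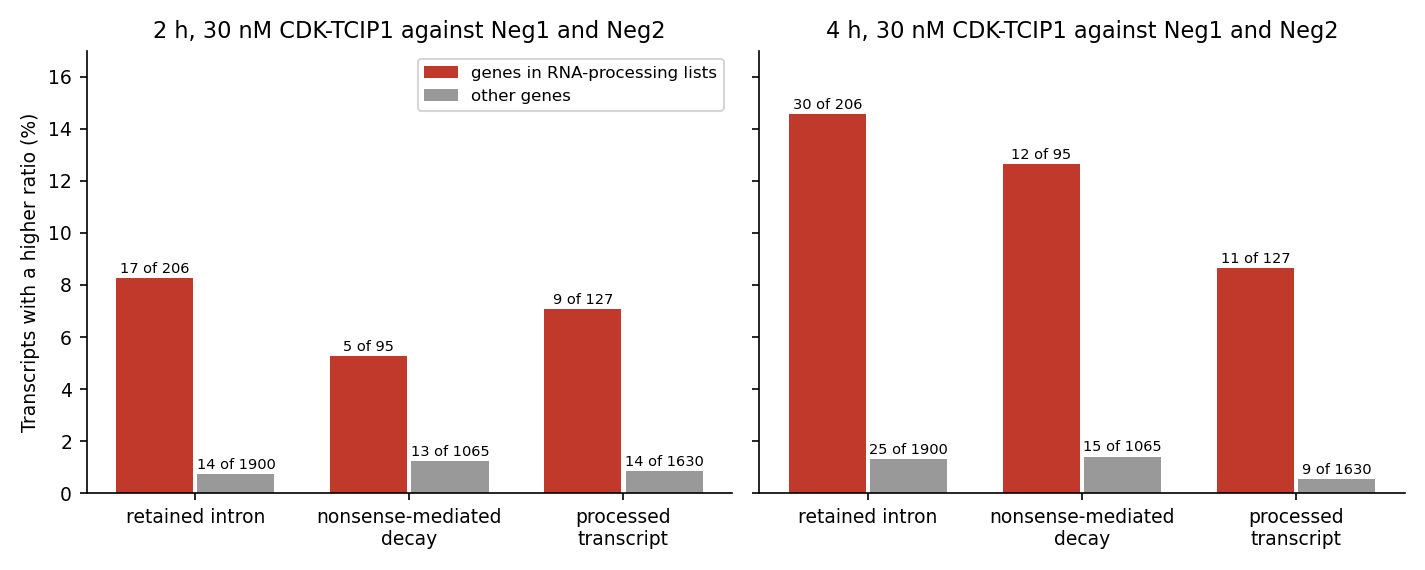
Bars give the percent of transcripts whose ratio to coding counts rose with 30 nM CDK-TCIP1, for 3 noncoding transcript types with a vehicle TPM of 3 or more, in genes of the 7 RNA-processing lists (red) and in other genes (grey), with counts above. At 4 h the red bars stand at 14.6, 12.6 and 8.66%, and the grey bars at 1.32, 1.41 and 0.552%. The lists were chosen with earlier results of these data known.

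Counts in other gene groups are given beside the shares over all 2106 transcripts, 2.61% rises and 0.76% falls at 4 h and 1.47% rises and 2.33% falls at 2 h, and nothing is read from counts this small. Of 118 transcripts of ribosomal protein genes 1 rose at 4 h (RPS24-211, 1.04, SE 0.22), a call lost in 6 of 7 fits with a library left out, and 1 fell. At 2 h 0 rose and 4 fell, with a median of -0.34 over the 118. The 5 transcripts of highest vehicle TPM, all of this group, had changes of -0.29 to 0.15 at 4 h and -0.36 to 0.24 at 2 h, none called: RPL13-213, for example, had 60.9, 71.6 and 54.4 against 52.2 to 59.2. Translation factors and tRNA synthetases had 2 rises at 4 h, and 1 rise and 3 falls at 2 h, among 60. None of 9 transcripts of apoptosis and p53 target genes was called at either time. For cell cycle genes 1 of 29 was called (a fall at 2 h), and for transcription and elongation genes BRD2-208 was the call at both times among 22.

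The known examples of regulated retention were mostly not called. CLK1, a kinase of SR proteins, had 3 transcripts with positive values at both times, except that CLK1-207 was at -0.02 at 2 h with the other denominator or without replicate 1 of Neg1. CLK1-210 had 155, 157 and 199 with CDK-TCIP1 at 4 h against 79.8 to 112, without overlap, at 0.87 (SE 0.29, edgeR adjusted p = 0.177). MAT2A-205, of the enzyme that makes S-adenosylmethionine, had 2.05 to 3.16 against 1.33 to 2.28, and MAT2A-203 had 0.125 to 0.278 against 0.162 to 0.384. CCNL2-204 had 194, 232 and 227 against 95.2 to 145, at 0.83 (SE 0.27, edgeR adjusted p = 0.17). SRSF7-211 had 4.92, 5.61 and 5.39 against 1.77 to 2.50, at 1.40 (SE 0.50, edgeR adjusted p = 0.225), and SRSF2-206 had 1.07, 1.71 and 1.65 against 0.603 to 0.988. Several of these groups did not overlap, yet the test did not pass. How many of all transcripts had groups without overlap was not counted, so nothing is read from it here. No retained-intron transcript of CLK4, MCL1 or CDK9 met the TPM rule.

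With dose at 2 h, the typical ratio was lowest at 100 nM. The median change from 10 to 100 nM was -0.16 over the 2106 transcripts, against -0.07 over all rows, 0.01 for nonsense-mediated decay and 0.00 for processed transcripts. From 10 to 30 nM it was -0.02, and from 30 to 100 nM -0.16. Per library, the median relative to Neg1 and Neg2 was -0.078 and -0.073 at 10 nM and -0.291, -0.162 and -0.136 at 100 nM. Without replicate 1 of the 100 nM group the median change from 10 to 100 nM was -0.10. Of single transcripts, 0 were called between 10 and 30 nM by edgeR (0.00399% of all rows were called), with 103 at an unadjusted p under 0.05 and 1 called by limma. Between 30 and 100 nM 1 fell by edgeR (0.016% of all rows were called), and limma called 4 lower and 0 higher. Between 10 and 100 nM 3 fell and 0 rose by edgeR (0.0399%), while limma called 33 lower and 4 higher.

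HNRNPD-210 was called between doses. Its ratio at 2 h was 6.71 and 7.10 at 10 nM, 3.83, 3.8, 5.36 and 3.52 at 30 nM, and 1.06, 1.77 and 1.72 at 100 nM, against 3.14 to 4.07 with Neg1 and Neg2. The 3 doses did not overlap, with the lowest dose above Neg1 and Neg2 and the highest below them. It fell by 2.22 from 10 to 100 nM (SE 0.31, edgeR adjusted p = 0.0113), while at 30 nM it went from 4.13 ± 0.832 (SD, n = 4) at 2 h to 11.6 ± 1.42 (SD, n = 3) at 4 h. The other falls with dose were RPSA-205 and RPSA-206, of a small ribosomal subunit protein, named after their values were seen. RPSA-205 had 0.0836 and 0.115 at 10 nM and 0.0208, 0.0184 and 0.0218 at 100 nM, a fall of 2.30 (SE 0.26, edgeR adjusted p = 0.0021), and RPSA-206 fell by 2.20 (SE 0.36).

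Other named transcripts differed in how their values ran with dose, without a call between doses. How many of all transcripts had doses without overlap was not counted. DDX17-201 had 67.4 and 65.7 at 10 nM, 50.8 to 63.7 at 30 nM and 29, 44.6 and 44.0 at 100 nM, a downward order without overlap between doses, as for HNRNPD-210. SRSF5-207 had 16.8 and 14.0 at 10 nM, 5.98 to 8.22 at 30 nM and 5.60, 4.79 and 4.34 at 100 nM, also without overlap. RBM39-223 was already near its final values at the lowest dose, with 97.1 and 96.0 at 10 nM and 109, 105 and 106 at 100 nM. DCTN5-203 went from 17.5 and 18.2 at 10 nM to 14.1, 9.36 and 11.1 at 100 nM, again without overlap. CDCA7-208 went from 16.9 and 17.5 at 10 nM to 25, 31.8 and 26 at 100 nM.

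Each control was also compared by itself, with the same CDK-TCIP1 libraries. Against Neg1 alone 21 ratios rose and 5 fell at 4 h (0.483% of all rows were called in either direction), and against Neg2 alone 17 rose and 4 fell (0.391%). At 2 h the counts were 7 and 9 against Neg1 (0.307%) and 10 and 11 against Neg2 (0.495%). From 2 to 4 h, the median ratio changed by 0.15 with CDK-TCIP1 and by -0.06 with Neg1 and Neg2. Between the times with CDK-TCIP1, edgeR called DIAPH1-210 alone (0.00399% of all rows), and limma called 10 higher and 2 lower at 4 h. With Neg1 and Neg2, 0 were called between the times by edgeR (0%), with 71 at an unadjusted p under 0.05 and 0 called by limma.

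Relative to vehicle, which was harvested at 4 h alone and also chose the transcripts, the median log2 changes were -0.14 at 10 nM, -0.16 at 30 nM and -0.33 at 100 nM for 2 h, and 0.00 at 30 nM for 4 h. They were 0.03 and 0.02 for Neg1 and Neg2 at 2 h and -0.04 for each at 4 h. These values are a description without a test.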

How the data were processed

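Poly(A) RNA of 23 SUDHL5 libraries was sequenced in paired ends on a NovaSeq, per the labels' protocols, which name TRIsure lysis and columns with DNase I. FastQC, cutadapt, kallisto and DESeq2 are named in the submitters' processing notes. No version of these tools, reference transcript set or strandedness is named in the labels, so antisense reads may not be separated. The authors deposited, per library, estimated counts and TPM for 227912 transcripts. Identifiers without versions were matched to GENCODE 29 (205804 matched, after copies on the pseudoautosomal Y were left out). Unmatched rows held 1.24 to 1.36% of counts and were not used. The deposited TPM values were used for the TPM rule, marker levels and an alternative ratio.

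Estimated counts were rounded to whole numbers. For the retention ratio, each library gave 2 columns, the transcript and the summed protein-coding transcripts of its gene, with a coefficient per library and per group in edgeR 4.0.16 (R 4.3.3), quasi-likelihood F test, filterByExpr on both counts, Benjamini-Hochberg adjustment over 25046 rows and 14 residual degrees of freedom. Transcript levels used TMM and 71144 transcripts. The standard error is the log2 change divided by the square root of F. Both fits were also run on simulated counts, with a dispersion capped below the common dispersion of the data. The ratio fit was given that dispersion. The simulation therefore cannot give the error rates of the fits in these data. DESeq2 1.42.0, limma 3.58.1 (log2 ratios with a pseudocount of 1) and other settings were alternatives.

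The transcripts and gene lists were chosen with earlier results of these data known. Transcripts were named by a rule: the 8 largest rises and falls of the ratio at 4 h and 5 at 2 h (at least 50 mean counts, no overlap between groups, 1 a gene), up to 3 each way for dose and for the difference between times, 2 each way a gene list, all of 12 set genes, the 5 of highest vehicle TPM and those beside the threshold. Others are said to have been singled out after their values were seen. Some transcripts that the rule names are not reported here.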

Additional observations from a re-analysis of the deposited data

Results flagged for a closer look

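In CDK-TCIP1 at 30 nM for 2 h, the group with 4 libraries, 68 values were examined (the ratio of each named transcript in the fit, and the median and the sum over all). In 5 of the 68, 1 library lay apart from the others by an unusually large share of the group's range (Dixon's criterion), which chance gives in about 1 in 20 groups. CCNL1-206 had a ratio of 7.51 in replicate 1 and was listed at 0 in the other 3 (share of the range 1), and it has 41 bases outside coding exons. In replicate 3, DHX15-202 had 2.97 against 2.24 to 2.33 (0.875), HNRNPD-210 had 5.36 against 3.52 to 3.83 (0.832) and SRSF5-212 had 52.8 against 40.2 to 41.7 (0.884). ESS2-204 had 247 in replicate 4 against 155 to 171 (0.832).

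DIAPH1-210 was the one transcript for which the 4 h and 2 h effects differed by the edgeR test of that difference (adjusted p = 3.91e-05). The fitted log2 difference was -8.93 and is no bound, since the transcript was listed at 0 in all 3 CDK-TCIP1 libraries at 4 h. Its ratios at 2 h were 1.28 to 1.90 with CDK-TCIP1 and 2.42 to 3.47 with Neg1 and Neg2.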

How the results depend on the processing

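No median and no called transcript named by the rule turned direction under an alternative, though some uncalled ones did. Counts of called ratios depended strongly on the fit, whose common biological coefficient of variation was 0.605. Ratios that rose and fell at 4 h (55 and 16) numbered 107 and 48 by limma, 4 and 2 without a filter on low counts, 0 and 0 with only the groups compared, 19 and 6 with the replicate block, 19 and 10 at a vehicle TPM of 10 or more, and, for rises, 36 with all other transcripts of the gene as denominator and 112 at a TPM of 1 or more. At 2 h (31 and 49) they were 69 and 106, 3 and 3, 3 and 2, 4 and 4 with the replicate block, 8 and 13, and 73 and 78 at a TPM of 1 or more, so the order of rises and falls at 2 h was not kept. Without replicate 2 of Neg2 at 2 h, ratios rose and fell 37 and 36 times and levels 111 and 77. All 71 calls at 4 h and 78 of 80 at 2 h were also made by limma, and 2 of the 71 (RBM39-228 and RBM39-233) had the opposite sign with the other denominator. Rises in RNA-processing genes (30 at 4 h, 17 at 2 h) were 51 and 29 by limma, 3 and 2 without filter, 0 and 2 with only the groups compared, and 13 and 3 with the replicate block. With 1 library left out, and the dispersion trend of the full fit, ratios numbered 18 to 45 and 4 to 9 at 4 h, 14 to 37 and 21 to 36 at 2 h, and 12 to 26 and 10 to 15 for RNA-processing genes. Level calls (125 and 67 at 4 h, 102 and 106 at 2 h) were 203, 129, 172 and 210 by DESeq2. Without filter they were 81 higher at 4 h, and 62 and 57 at 2 h, and with only the groups compared 61 and 62 at 2 h. With the replicate block 50 rose at 2 h. Leaving out 1 library gave 87 to 104, 43 to 58, 67 to 111 and 59 to 84. The median ratio change from 10 to 100 nM (-0.16) ran from -0.19 to -0.10 with a library left out, and that without replicate 1 of 100 nM was the one outside its spread. Medians at 4 h and 2 h stayed within the spread between libraries under all alternatives run. Of 55 calls of the ratio of transcripts named by the rule, limma made 55, the other denominator 39, the fit without filter 9, that of only the groups compared 3 and the replicate block 19. Whether the numbers of the labels pair the libraries could not be settled. Deviations of same-numbered libraries had r of -0.10 to 0.01 at 4 h and -0.18 to 0.14 at 2 h. Those of differently numbered libraries had -0.02 to 0.10 and -0.19 to 0.19. With 2 libraries for each control and time, the deviations within a control mirror each other, so these values cannot exclude a pairing.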

Other observations

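Transcripts below the TPM rule were not described above. In the 7 RNA-processing lists, 16 of 423 retained-intron transcripts with a vehicle TPM under 3 had a raised ratio at 4 h (3.78%) and 0 a lowered one, against 94 of 9019 in other genes (1.04%) with 13 lowered. At 2 h these were 13 of 423 and 86 of 9019. The 9442 low transcripts together had a median change of 0.26 at 4 h and -0.03 at 2 h.

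HMGN1 and GSE1 each had 4 retained-intron transcripts that ran one way at both times, and GSE1 was picked after its values were seen. For GSE1, which encodes a coiled-coil protein found with histone demethylase complexes, the values were 1.21 to 1.93 at 4 h with 2 called, and 0.87 to 1.79 at 2 h with 3 called, while coding counts at 4 h were 65.8 CPM ± 6.57 (SD, n = 3) and 65.9 CPM ± 5.69 (SD, n = 4). HMGN1-216, with a whole intron, fell by 0.93 at 4 h (SE 0.21) and by 1.54 at 2 h (SE 0.19).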
